A study of Mus musculus with 6 samples.

Results

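The genes described here belong to the urokinase receptor and plasminogen activation system, and were followed in blood endothelial cells of the mouse intestine. A list of 7 symbols was matched to the array annotation: Plaur, Plau, Plat, Serpine2, Lrp1, Anxa2 and S100a10. Of these, 6 had a probe set assigned to that gene alone, out of 22180 genes with such a probe set. Serpine2 had none and was not analysed here. Probe sets were to be chosen by their mean value over the 6 arrays, but each of the 6 genes had exactly 1 probe set, so this measure decided nothing. These means ran from 5.77 for Lrp1 to 11.8 for S100a10. All 6 passed the filter on low values.

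Mice on a mixed C57BL/6 x 129 background were given tamoxifen under the skin on each of 5 days and their intestine was collected on day 6. The knockout mice were Apcfl//fl; Villin-CreERT2 (KO). In them tamoxifen activates a Cre recombinase under the promoter of villin, a gene of gut epithelium, so that Apc, a brake on Wnt signalling, is lost from epithelial cells rather than from endothelium. The control mice were Apcfl//fl and labelled WT, with no Cre named, and both groups carried the floxed Apc allele and received tamoxifen, so no array shows mice without the drug. The labels give no age and no sex. Endothelial cells were sorted from a collagenase digest as live CD31+ cells lacking CD45, EpCAM and gp38, and RNA was amplified and hybridised to Affymetrix Mouse Gene 2.0 ST arrays, with 3 knockout and 3 control arrays, each labelled a biological replicate. All levels below are log2 values from RMA, a procedure that corrects background, quantile-normalises the arrays and summarises probes. A log2 change is knockout minus control.

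Plasminogen circulates as an inactive precursor and is cut to plasmin, a protease that dissolves fibrin and degrades matrix. Urokinase (Plau) and tissue-type plasminogen activator (Plat) make that cut. The urokinase receptor (Plaur) is anchored in the membrane by a lipid and holds urokinase at the cell surface. A complex of annexin A2 (Anxa2) and S100A10 (S100a10) binds plasminogen and tissue-type activator on endothelium, and the endocytic receptor LRP1 (Lrp1) clears activators bound to their inhibitors, of which protease nexin 1 (Serpine2) is one. Migrating and sprouting endothelial cells are known to carry urokinase receptor.

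The receptor gene Plaur was 2.93-fold higher in the knockout, and the plasminogen-binding annexin gene Anxa2 was 1.27-fold higher. The other 4 measured members, including both activator genes, did not pass the test. Genes were tested with limma over the 15284 genes above background, and a gene passed at a Benjamini-Hochberg adjusted p under 0.05. In this test 2.61% of all genes passed, 1.13% as higher and 1.48% as lower, while 2 of 6 members passed, both as higher. A positive change was found for 5 of 6 members and for 46.7% of all genes. The median change was 0.28 over the members and -0.017 over all genes. The rise of Plaur was known when the list was drawn up, so neither its p-value nor these counts are independent support for a change of the pathway.

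The sequences upstream of both members that rose are shown because each window holds 1 match to the AP-1 element, the site bound by Fos and Jun proteins, and AP-1 is a known regulator of the human urokinase receptor gene. The windows are RefSeq sequences of build GRCm38.p6 and run from 250 bases before to 50 bases after the annotated start. The window of Plaur is chr7:24462233-24462532 on the plus strand and that of Anxa2 is chr9:69453433-69453732 on the plus strand. Capitals mark the AP-1 match.
Plaur: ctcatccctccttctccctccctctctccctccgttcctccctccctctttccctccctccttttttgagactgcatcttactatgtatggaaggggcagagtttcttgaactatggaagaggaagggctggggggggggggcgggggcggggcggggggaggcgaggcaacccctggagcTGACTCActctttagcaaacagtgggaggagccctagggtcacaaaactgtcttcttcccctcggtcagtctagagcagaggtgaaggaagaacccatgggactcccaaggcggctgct
Anxa2: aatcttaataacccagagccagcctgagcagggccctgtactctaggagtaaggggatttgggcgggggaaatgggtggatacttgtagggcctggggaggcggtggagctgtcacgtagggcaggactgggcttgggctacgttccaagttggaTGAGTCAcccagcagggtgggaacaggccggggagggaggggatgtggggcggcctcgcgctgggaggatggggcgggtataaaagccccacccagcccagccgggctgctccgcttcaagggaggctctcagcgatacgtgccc
The letters searched were TGAGTCA, which reads TGACTCA on the other strand. The first matched base lay at -69 from the start of Plaur and at -95 from that of Anxa2. Of 32851 promoter windows of this length, 5.2% held such a match on either strand. A GC box, searched as GGGCGG on both strands, occurred 3 times in each window and in 35.7% of all windows. Its matches in Plaur began at -111, -105 and -100. Those in Anxa2 began at -190, -48 and -24, and a TATA box match (TATAAA) began at -17 and did not overlap them. The window of Lrp1, the third tested member with an entry in the table, held 1 GC box and no AP-1 match. No window was available for Plau, Plat or S100a10, which also did not pass, so they were not searched. The TCF/LEF element CTTTGAT and the ETS element CCGGAAG had no match on either strand of the windows of Plaur, Anxa2 and Lrp1, against 3.73% and 8.86% of all windows. These are matches of letters in the reference sequence and were not measured as binding.

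Plaur, the urokinase receptor, stood at 9.53, 9.90 and 9.83 on knockout arrays 1, 2 and 3. On control arrays 1, 2 and 3 it stood at 8.06, 8.21 and 8.34. Every knockout array lay above every control array, and the lowest knockout value lay 1.20 above the highest control value. The group means were 9.75 ± 0.19 (SD, n = 3) and 8.21 ± 0.14 (SD, n = 3). The log2 change was 1.55 ± 0.12 (SE; 95% interval 1.28 to 1.81) with an adjusted p of 0.000742 in limma. Among all 15284 genes this was the 13th largest rise and the 7th smallest p. With each array left out in turn the change lay between 1.48 and 1.66 and passed each time, with adjusted p from 0.000419 to 0.00847. Against control 1 alone, the control with the lowest epithelial markers, the change was 1.69. Control 1 averaged 6.57 over those markers, still above the knockout arrays at 5.21 to 5.73. It had the highest average of the 6 arrays, 8.71, over markers of pericytes and smooth muscle cells. Changes against this single array are given without a test, since it has no spread of its own. In these bulk samples a larger share of cells with the transcript and more transcript per cell cannot be told apart.

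**Figure D1:**
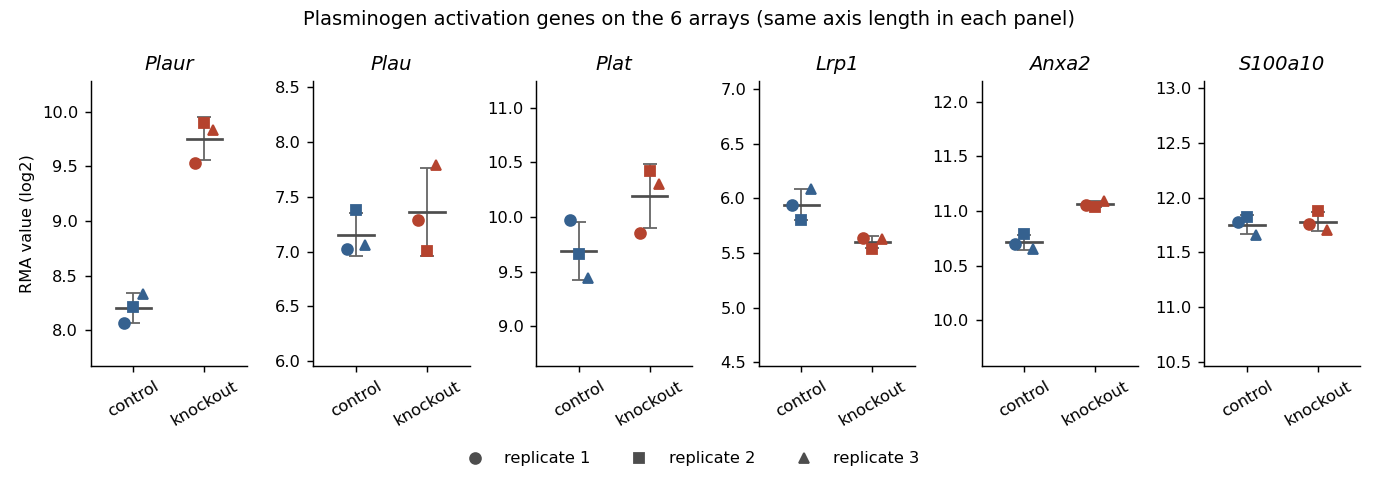
RMA log2 values of the 6 measured members on each array, with the group mean (horizontal line) and SD (vertical bar), 3 arrays a group, marker shape giving the replicate number. The panels share an axis length of the same number of log2 units but not the same origin. The knockout values of Plaur lie 1.20 or more above the controls, those of Anxa2 form a tight group above the controls, and the groups overlap for Plau, Plat and S100a10.

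The activator genes did not follow the receptor past the test. Plau, which encodes urokinase, the ligand of the receptor, stood at 7.29, 7.002 and 7.79 on the knockout arrays and at 7.03, 7.38 and 7.06 on the control arrays. The groups overlapped, with knockout 2 the lowest of the 6 arrays and knockout 3 the highest. Its change was 0.21 ± 0.20 (95% interval -0.24 to 0.66, adjusted p = 0.671 in limma), an interval that does not reach the one for Plaur. Without knockout 3 the change was -0.0091 (adjusted p = 0.992), so the positive value rests on that array. A rise of the size seen for Plaur lies outside the interval of Plau, but a rise of up to 0.66 on the log2 scale does not.

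Plat, the gene for tissue-type plasminogen activator and a product of endothelium in many vascular beds, stood at 9.86, 10.42 and 10.30 on the knockout arrays. Its control values were 9.97, 9.66 and 9.45. Knockouts 2 and 3 lay above all controls, and knockout 1 lay below control 1. The change was 0.50 ± 0.16 (95% interval 0.13 to 0.87) with an unadjusted p of 0.0141 and an adjusted p of 0.166 in limma, and it did not pass. Its adjusted p ranged from 0.0789 to 0.39 when each array was left out in turn.

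**Figure D2:**
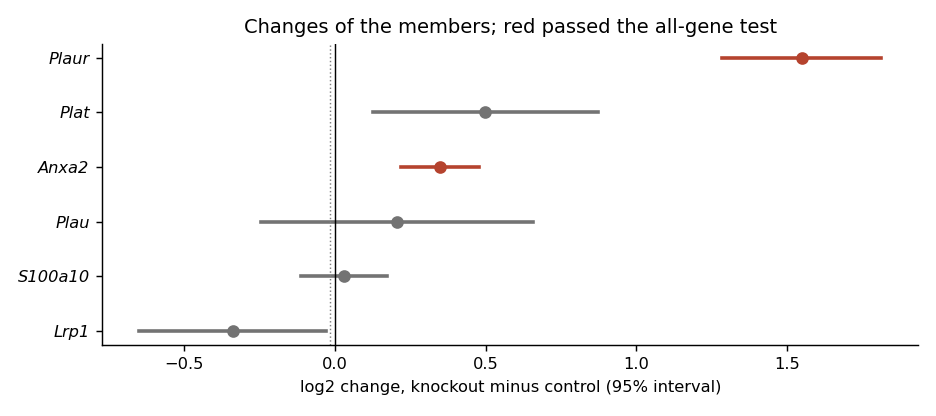
Log2 change of each measured member, knockout minus control, with its 95% interval from limma. Red members passed at an adjusted p under 0.05, the dotted line is the median of all genes at -0.017, and the interval of Plaur from 1.28 to 1.81 lies to the right of all others.

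Of the pair of genes whose products form the plasminogen-binding complex, Anxa2 passed and S100a10 did not. Anxa2 stood at 11.06, 11.04 and 11.09 on the knockout arrays, against 10.70, 10.79 and 10.66 on the control arrays. The groups did not overlap, with a gap of 0.25 between them and an SD of 0.027 within the knockout group and 0.068 within the control group. The change was 0.35 ± 0.057 (95% interval 0.22 to 0.48) with an adjusted p of 0.0185 in limma. Leaving out knockout 1, 2 or 3 or control 3 gave adjusted p-values of 0.0582, 0.052, 0.0796 and 0.0758 and ended the call, while the change itself stayed between 0.32 and 0.38 over all arrays left out. Against control 1 alone the change was 0.36. The call was also lost without the variance trend (adjusted p = 0.152) and with arrays centred on endothelial markers, at 0.23 ± 0.062 (adjusted p = 0.0719).

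**Figure D3:**
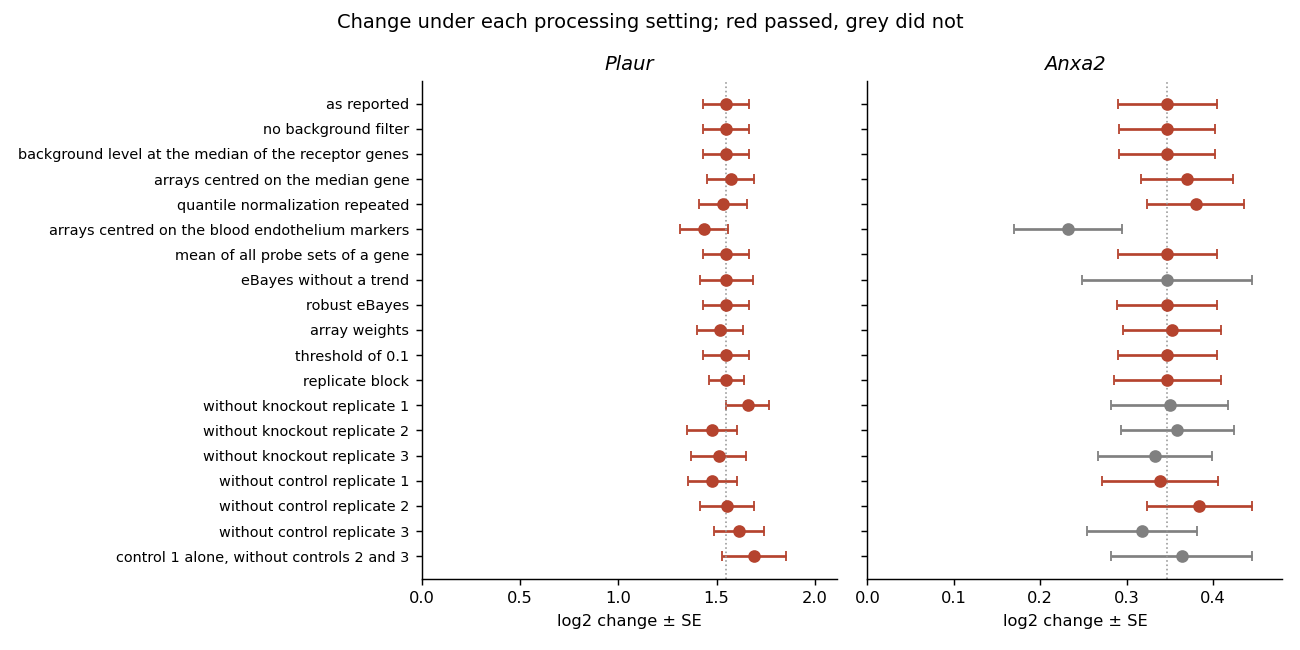
Log2 change ± SE of Plaur and Anxa2, knockout minus control, as reported and under each other processing setting. Red points passed and grey points did not. Plaur passed under every setting with more than 1 control array, and its changes ran from 1.43 to 1.69. The call of Anxa2 was lost with endothelial centring, without the variance trend and without knockout 1, 2 or 3 or control 3. The setting with control 1 alone takes its error from the 3 knockout arrays only, and its colour is not read as a call.

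S100a10, the partner of annexin A2, stood at 11.76, 11.88 and 11.70 on the knockout arrays and at 11.77, 11.82 and 11.66 on the control arrays. The groups overlapped within a range of 0.22 over all 6 arrays. The change was 0.029 ± 0.063 (95% interval -0.11 to 0.17, adjusted p = 0.872 in limma). This interval ends below the lower bound of Anxa2, although the difference between the 2 changes was not itself tested.

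Lrp1, the clearance receptor, was the only measured member with a negative change. It stood at 5.64, 5.54 and 5.63 on the knockout arrays and at 5.94, 5.80 and 6.08 on the control arrays. All knockout values lay below all control values, with a gap of 0.16. The change was -0.34 ± 0.14 (95% interval -0.65 to -0.030), with an unadjusted p of 0.0349 and an adjusted p of 0.256 in limma, and it did not pass. Groups that do not overlap were common on these arrays. They occurred for 22.1% of genes, 9.79% with the knockout higher and 12.3% with the knockout lower, against 3 of the 6 members, of which 2 were higher and 1 was lower.

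Across the 6 arrays Plaur and Anxa2 had a Pearson correlation of 0.95, Plaur and Plat 0.75, Plaur and Plau 0.37 and Plaur and S100a10 0.18, while Plaur and Lrp1 had one of -0.88. These correlations describe 6 arrays that share the group difference. The order of arrays within groups was not shared, since Plaur was highest in knockout 2 and control 3, whereas Anxa2 was highest in knockout 3 and control 2.

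The 5 genes whose 6 values were most like those of Plaur were Pglyrp1, Phtf1, Ccdc115, Mmgt2 and Clic1, with Pearson correlations from 0.994 to 0.999 over 6 arrays. Pglyrp1, which encodes a peptidoglycan recognition protein, stood at 9.12, 9.34 and 9.37 in the knockout and at 7.92, 8.08 and 8.19 in the control. It shared with Plaur the control order and the low position of knockout 1, and it changed by 1.21 ± 0.11 (adjusted p = 0.00189 in limma). Phtf1 changed by 0.51 ± 0.11 (adjusted p = 0.0437 in limma). Ccdc115, Mmgt2 and Clic1, a chloride intracellular channel gene, had changes of 0.43, 0.15 and 0.21 and did not pass. Anxa2 was most like Ctla2a, Slc23a2, a vitamin C transporter gene, and Rnf41, with correlations from 0.994 to 0.999. Of these Ctla2a (0.33 ± 0.056, adjusted p = 0.0227) and Slc23a2 (0.64 ± 0.10, adjusted p = 0.0185) passed in limma.

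Around the members, plasminogen itself and its other surface receptors and activators gave no call. Of 9 listed genes 6 were tested, and 0 passed in limma, with 1 at an unadjusted p under 0.05, a level reached by 16.4% of all genes. Plg, the plasminogen gene, chosen here after its values were seen, lay below the background level of 4.12 with group means of 3.27 and 3.60, and the liver is its known source. St14, which encodes matriptase, an epithelial membrane protease, stood at 7.33, 7.66 and 7.12 in the knockout and at 6.57, 7.11 and 6.83 in the control. Its groups were barely separate, and its change of 0.53 ± 0.18 did not pass (adjusted p = 0.179 in limma). F11, the gene for coagulation factor XI, was at -0.20 ± 0.15 (adjusted p = 0.582).

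Inhibitors of plasmin and of its activators also gave no call, with 5 of 11 listed genes tested, 5 below background and 1 without a probe set of its own. The 5 tested had negative changes with a median of -0.038, and 0 passed in limma while 1 had an unadjusted p under 0.05. That gene was Serping1, the C1 inhibitor, at 9.05 ± 0.25 (SD, n = 3) in the knockout and 9.51 ± 0.22 (SD, n = 3) in the control, a change of -0.46 ± 0.15 (adjusted p = 0.156). With the replicate number as a block it passed as lower (adjusted p = 0.0438 in limma). Serpina5, the protein C inhibitor gene, had means of 4.08 and 4.22, near or below background.

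Partners of the urokinase receptor moved in both directions. Of 21 listed genes 15 were tested, 1 rose, 1 fell and 13 did not pass, with a median change of 0.072. Among those that did not pass was the integrin gene Itga3, at 0.45 ± 0.11 (adjusted p = 0.0615 in limma). With arrays centred on the median gene it passed as higher (0.47, adjusted p = 0.0499 in limma). Itgb3, the beta subunit of the vitronectin-binding integrin, with which the receptor is known to associate, stood at 7.84, 8.35 and 7.97 on the knockout arrays. Its control values were 7.28, 7.14 and 7.16. The groups were well apart and the change was 0.86 ± 0.14 (adjusted p = 0.0193 in limma). Leaving out knockout 3, control 2 or control 3 gave adjusted p-values of 0.0647, 0.0631 and 0.0745 and ended the call. Against control 1 alone the change was 0.77.

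Vtn, the gene for vitronectin, a matrix protein that binds both the urokinase receptor and this integrin, fell. It stood at 7.05, 6.19 and 6.50 in the knockout and at 8.01, 7.89 and 8.02 in the control, so the 3 controls lay within a narrow band and the knockouts were spread below it. The change was -1.39 ± 0.20 (adjusted p = 0.0113 in limma). Leaving out knockout 3 or control 3 gave adjusted p-values of 0.0573 and 0.0515 and ended the call. Against control 1 alone the change was -1.43. Of 11 markers of mural cells, which are pericytes and smooth muscle cells, 6 fell as well and 5 did not pass. The 11 markers averaged 7.69 to 8.03 on the knockout arrays and 8.43 to 8.71 on the control arrays, and none was below background. All 11 had an unadjusted p under 0.05 in limma, a level reached by 16.4% of all genes. In 10 of the 11 every knockout array lay below every control array, against 12.3% of all genes. The 1 that went the other way was Abcc9, a pericyte marker among the 5 that did not pass. It had a change of 0.49 with every knockout array above every control array (adjusted p = 0.179 in limma), and was singled out after its values were seen. The part of mural RNA in the change of Vtn was not tested.

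Genes by which endothelium controls coagulation also went both ways. Of 17 listed genes 14 were tested, 2 rose, 1 fell and 11 did not pass, with a median change of 0.063. F2rl3, which encodes the thrombin receptor PAR4, stood at 8.94, 9.08 and 8.91 in the knockout against 8.11, 8.45 and 7.75 in the control, with all knockouts above all controls. Its change was 0.87 ± 0.16 (adjusted p = 0.0278 in limma), and with single arrays left out it passed only without control 2 (adjusted p = 0.0166), the others giving up to 0.0951. Entpd1, the gene for the ATP- and ADP-degrading surface enzyme CD39, stood at 10.63, 10.73 and 10.64 in the knockout and at 10.22, 10.36 and 10.33 in the control. It changed by 0.36 ± 0.064 (adjusted p = 0.0243 in limma), a call lost with any array left out (adjusted p from 0.0501 to 0.0796) and with arrays centred on endothelial markers (adjusted p = 0.0736).

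Gas6, a vitamin K-dependent ligand of TAM receptors, was the gene of this list that fell. It stood at 9.29, 9.23 and 8.79 in the knockout and at 9.78, 9.92 and 9.85 in the control, again with separate groups. Its change was -0.75 ± 0.13 (adjusted p = 0.0222 in limma), a call that ended on leaving out control 2 or control 3 (adjusted p = 0.0738 and 0.0809). Against control 1 alone it was -0.68. Of the 11 mural markers given beside Vtn, 10 moved the same way with separate groups, 6 of them passing, and Abcc9 did not. The part of mural RNA in the change of Gas6 was not tested.

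**Figure D4:**
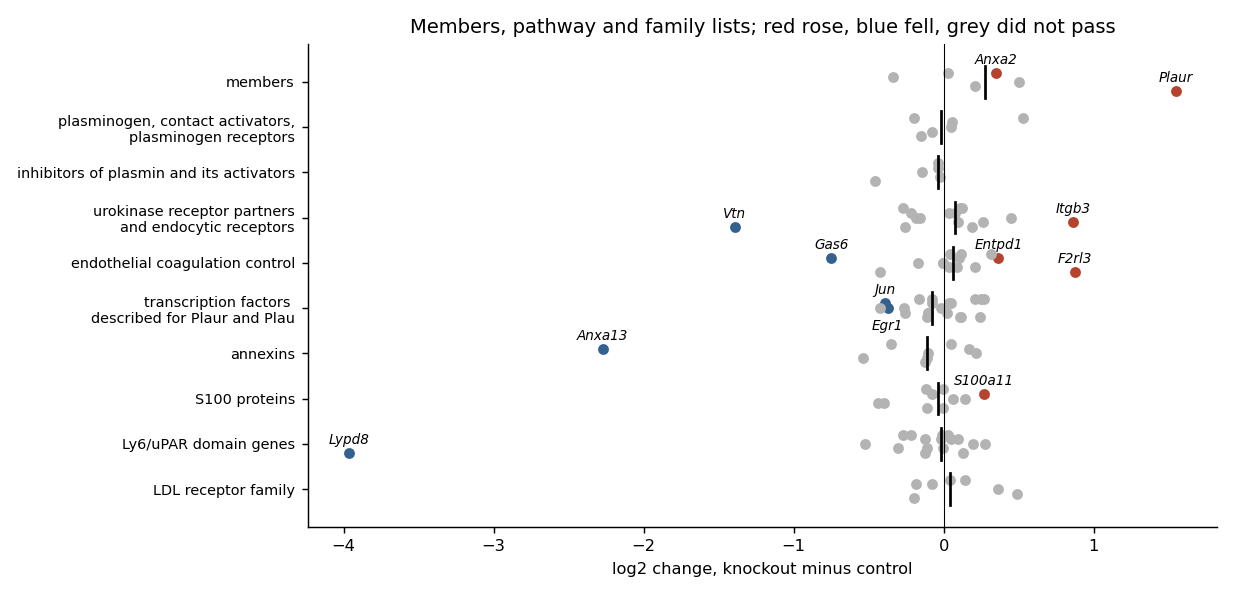
Log2 change, knockout minus control, of every tested gene of the members and of the 9 pathway and family lists. Each point is a gene, red passed as higher, blue passed as lower, grey did not pass, and the black bar is the median of the list. Plaur at 1.55 is the largest rise shown, and Lypd8 at -3.97 the largest fall.

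Transcription factors described for Plaur and Plau were measured for 21 of 23 listed genes, of which 0 rose and 2 fell, with a median change of -0.075. Jun, an AP-1 subunit gene, stood at 11.11, 10.96 and 11.08 in the knockout and at 11.55, 11.30 and 11.49 in the control, a change of -0.39 ± 0.075 (adjusted p = 0.0317 in limma). Egr1, an immediate early factor gene, changed by -0.37 ± 0.076 (adjusted p = 0.0406 in limma). Both genes thus moved opposite to Plaur, with separate groups. With single arrays left out the call of Jun held only without control 2 (adjusted p = 0.0268), the others giving up to 0.123. That of Egr1 was lost without any knockout array and without control 3 (adjusted p from 0.09 to 0.126), and also with the replicate number as a block (adjusted p = 0.0588), with arrays centred on the median gene (adjusted p = 0.0581) and, like Jun, with quantile normalization repeated (adjusted p = 0.0508 and 0.0507). Tissue digestion is known to induce both genes. With arrays centred on endothelial markers 4 factor genes passed as lower, the others being Junb (-0.54, adjusted p = 0.0269) and Epas1 (-0.22, adjusted p = 0.0366). That centring also added Cav1 among the receptor partners (-0.39, adjusted p = 0.0233) and Ly6c2 among the Ly6 genes (-0.42, adjusted p = 0.0168), both as lower.

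The families to which the members belong were counted in the same way. Among annexins other than Anxa2, 9 of 11 were tested, 0 rose and 1 fell, with a median change of -0.11. The fall was in Anxa13, an annexin of intestinal epithelium, which was above background on 1 of 3 knockout arrays and on 3 of 3 controls and was at least 4.49-fold lower when values were raised to the background level (adjusted p = 0.0394). Its control values of 5.21, 7.44 and 6.47 followed the epithelial markers, with control 1 lowest, and its change against control 1 alone was -1.11. The call was lost without any array but control 1 (adjusted p from 0.0579 to 0.138). Among S100 genes other than S100a10, 10 of 14 were tested, 1 rose and 0 fell. The rise was in S100a11, at 11.92, 11.88 and 11.875 on the knockout arrays against 11.64, 11.64 and 11.58 on the controls (0.27 ± 0.045, adjusted p = 0.019 in limma), and it was lost without any array but control 1 (adjusted p from 0.0509 to 0.0809) and with arrays centred on endothelial markers (adjusted p = 0.09).

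Of 25 genes with the domain shared by Ly6 proteins and the urokinase receptor, 17 were tested, 0 rose and 1 fell, with a median change of -0.017. The fall was in Lypd8, a gene of the colonic epithelium, which stood at 4.19, 5.27 and 4.27 in the knockout and at 6.88, 9.63 and 9.12 in the control. Controls 2 and 3 were the high arrays and control 1 lay between them and the knockouts. The change was -3.97 ± 0.62 (adjusted p = 0.0159 in limma) and -2.30 against control 1 alone, and the call was lost without knockout 1 (adjusted p = 0.0595), knockout 3 (adjusted p = 0.0759) or control 3 (adjusted p = 0.067). Of 8 other genes of the LDL receptor family, to which Lrp1 belongs, 7 were tested and 0 passed in limma, with 1 at an unadjusted p under 0.05. Lrp3 was at 0.49 ± 0.17 (adjusted p = 0.202) and Lrp12 at 0.36 ± 0.17 (adjusted p = 0.347).

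Several of these smaller calls also depended on the variance model. Without a variance trend, F2rl3, Gas6, Entpd1, Jun, Egr1, Anxa13 and S100a11 no longer passed, their adjusted p lying between 0.07 and 0.231, and with a robust variance estimate Anxa13 and Lypd8 did not (adjusted p of 0.102 and 0.0974). Set against control 1 alone, the changes of F2rl3, Entpd1, Jun and S100a11 were 0.87, 0.44, -0.50 and 0.25.

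The sorted cells carried blood endothelial markers, and transcripts of other cell types were measured beside them. Of 12 blood endothelial markers none was below background, the list averaged 10.83 to 10.88 on the knockout arrays and 10.73 to 10.76 on the control arrays, and 1 rose. Pecam1, which encodes CD31, had means of 11.43 in both groups, and Cdh5, the gene for VE-cadherin, exceeded 11.9 on every array. The 1 that rose was Eng (0.26 ± 0.044, adjusted p = 0.0211 in limma). In 6 of the 12 every knockout array lay above every control array, against 9.79% of all genes, and in 1 every knockout array lay below. An unadjusted p under 0.05 in limma was found for 6, against 16.4% of all genes, and the median change of the list was 0.13. The 14 epithelial markers averaged 5.21 to 5.73 in the knockout, 6.57 in control 1, and 8.13 and 7.87 in controls 2 and 3. None had a mean over the 6 arrays below background, and 7 passed as lower. The other 7 did not pass in limma. In 12 of the 14 every knockout array lay below every control array, against 12.3% of all genes. The median change was -1.91, and 0 of the 14 had a positive change. Krt18, singled out after its values were seen, had the smallest fall, at -0.20 with overlapping groups (adjusted p = 0.796 in limma). The part of epithelial RNA in the members' values was not tested. Plaur is also known in myeloid cells, which carry CD45 and which the sort was set to remove. Ptprc, the gene for CD45, had means of 4.14 in the knockout and 4.46 in the control, near the background level of 4.12 (-0.33 ± 0.20, adjusted p = 0.485). Other leukocyte transcripts stood well above background. The brightest marker had a mean over the 6 arrays of 10.9 for B and plasma cells (Ighm) and 8.06 for T and NK cells (Ccl5). It was 7.95 for macrophages (Cd68) and 4.79 for neutrophils (Cxcr2). Of 10 macrophage markers 0 passed, with 1 at an unadjusted p under 0.05, 9 of 10 were higher, and the list averaged 5.72 to 6.11 in the knockout and 5.51 to 5.87 in the control. Of 8 neutrophil markers 5 were below background, and the 3 tested averaged 4.53 to 4.59 and 4.24 to 4.74. The part of myeloid RNA in the level of Plaur was not tested. Of 5 tested lymphatic markers 1 rose, of 7 fibroblast markers 1 fell and of 7 T and NK cell markers 1 fell, while 0 passed of 4 B and plasma cell, 4 platelet and 3 glial and neuronal markers. In 5 of the 7 T and NK cell markers every knockout array lay below every control array, and 5 had an unadjusted p under 0.05 in limma. Their median change was -0.64 and 0 were positive. In 3 of the 7 fibroblast markers the knockout arrays were likewise all lower, with a median of -0.45 over the list. The part of RNA of these cells in the members' values was not tested. Pdpn, the gene for gp38 and also on the lymphatic list, was at -0.30 ± 0.18 (adjusted p = 0.461 in limma). Apc, deleted in epithelium and not in the sorted cells, was at -0.16 ± 0.14 (adjusted p = 0.65) and does not check the labels.

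**Figure D5:**
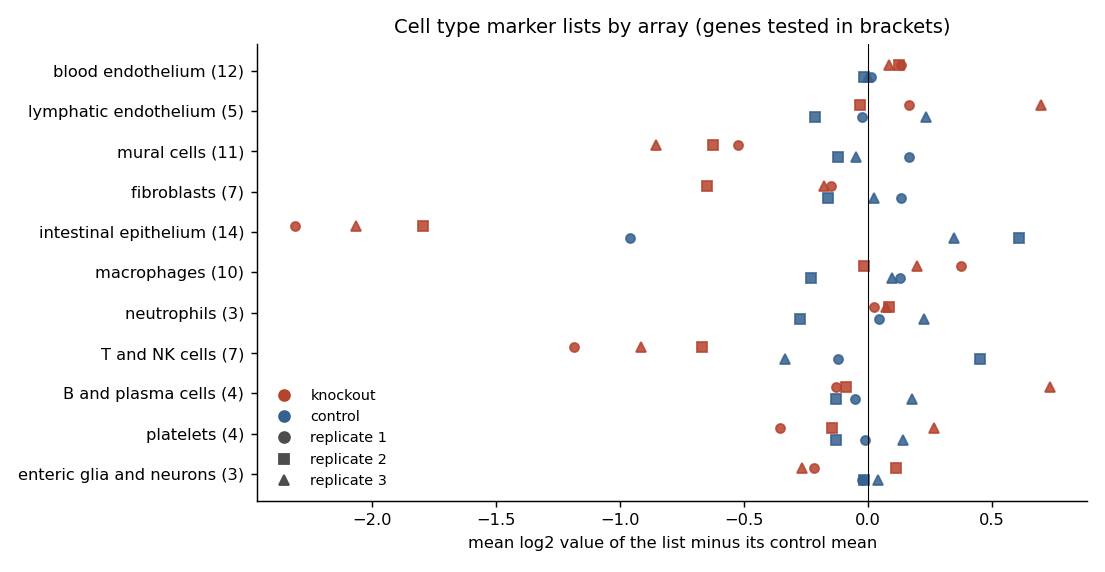
Mean log2 value of each cell type marker list on each array, minus the mean of the control arrays, with the number of tested genes in brackets. Knockout arrays are red and control arrays blue, and marker shape gives the replicate number. The epithelial list spreads widely among the controls, with control 1 lowest, and the mural list lies lower on all knockout arrays.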

How the data were processed

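The deposited table holds log2 values for 41345 probe sets on 6 arrays, made by the authors with RMA in the oligo package, per the submitters' processing notes. For their versions and annotation files the sources used here give nothing. Quantile normalization forces equal array distributions, so a shift common to most genes is not visible. Array medians lay between 4.77 and 4.81. Arrays have no read depth, and their number limits the precision.

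The platform annotation gave the genes of the probe sets: 23521 had 1 gene symbol, 1814 several and 16010 none, and only the first were used. For each gene the probe set with the highest mean was taken. Genes were kept when that mean exceeded 4.12 on the log2 scale, the 90th percentile of 1428 chemosensory receptor genes (olfactory, vomeronasal, taste). The comparison used limma 3.58.1 under R 4.3.3 (lmFit, eBayes with a trend, two-sided, Benjamini-Hochberg over 15284 genes), which passed 399 genes. ± after a change is the standard error. The procedure was tested on simulated data. Figures used matplotlib 3.10.9.

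Members, lists and tests were chosen with earlier results of these data known. Named genes were drawn from several groups, and not all of the brightest markers are named. The groups were the members and, of each of 9 pathway and family lists, the changed genes or else the 2 with the smallest p. Further groups were the brightest of each of 11 marker lists, those most like Plaur and each changed member, Apc and the sort markers. Some genes that passed only under another setting are named with that setting. Other genes are said to be chosen after their values were seen.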

Additional observations from a re-analysis of the deposited data

How the results depend on the processing

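Plaur kept its direction under all 18 other settings, 1 of which has a lone control, and passed under each of those with more than 1 control array. Over all genes 399 passed, 173 higher and 226 lower, with 112 higher and 590 lower (702) when arrays were centred on endothelial markers, which moved the median change of all genes from -0.017 to -0.13. The number was 139 without the variance trend, 768 at a threshold of 0.1, 52 against control 1 alone and 91 to 379 with single arrays left out. Of the members 2 passed, 1 each with endothelial centring and without the trend, and 1 to 2 with single arrays left out. Of pathway and family genes 10 passed, 4 higher and 6 lower, with 2 higher and 10 lower (12) under endothelial centring, 3 without the trend and 0 to 8 with single arrays left out. The Anxa2 call was lost with endothelial centring (0.23) and without the trend (0.35). Its change was 0.36 against control 1 alone and lay between 0.32 and 0.38 with single arrays left out. The values of 2 uncalled members changed sign. S100a10 was at -0.086 with endothelial centring, -0.020 without knockout 2 and -0.019 without control 3, within 0.068 at most when single arrays were left out, and Plau was at -0.0091 without knockout 3 and 0.39 at most. Deviations of same-numbered arrays from their group means had correlations of -0.020, -0.0077 and 0.039. Those of differently numbered arrays ran from -0.032 to 0.034. These values cannot show whether a number marks a shared litter or day, and the labels do not say. With the replicate number as a block 394 genes passed, 313 of them among the 399, and the changes of Plaur (adjusted p = 0.00132) and Anxa2 (adjusted p = 0.0363) passed. Other causes were not tested. With control 1 alone the spread comes from the 3 knockout arrays and the lone control is assumed to vary like them, so calls kept or lost there say little and are not counted. With 3 arrays a group, small changes can be missed.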
